A study of Mus musculus with 4 samples.

Results

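The tooth mesenchyme of the lower molar was compared with that of the upper molar in control mouse embryos at embryonic day 13.5. The comparison rests on 2 of the 4 RNA sequencing libraries of the study, 1 of the lower (mandibular) and 1 of the upper (maxillary) molar, both of genotype Bmp4f/+ on a mixed background strain. Control embryos thus carried 1 floxed allele of the signalling ligand Bmp4, and their labels name no Cre. The other 2 libraries, also 1 for each molar, came from Bmp4f/f;Wnt1Cre mutants of the same age and background, in which Wnt1-Cre, a driver active in the neural crest, deletes Bmp4. Tissue was cut from frozen head sections by laser capture, and each library was a pool, described as 3 pairs of control and mutant samples. Expression was measured in FPKM, a count of fragments adjusted for transcript length and for the number of mapped reads, and was summed over the transcripts of each gene. The comparison covered 10366 of 22072 genes, those whose control mean was 1 FPKM or more, whose longest transcript had at least 300 bases and whose estimates had not failed. Pairs of values are given as upper against lower molar. Differences are lower minus upper on log2(FPKM + 1), which understates the change of genes near 1 FPKM.

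Molar mesenchyme descends from cranial neural crest cells that settle in the first pharyngeal arch. In the lower part of the arch endothelin signalling induces Dlx5 and Dlx6, homeobox genes that set mandibular identity, while Dlx1 and Dlx2 are active in both the upper and the lower part. Pitx1 is a homeobox gene of the lower jaw and the hindlimb, and Pou3f3 is a POU-domain transcription factor of the upper jaw. At this stage the tooth bud is surrounded by condensing mesenchyme that expresses Msx1, Pax9, Barx1, Lhx6 and Lhx8.

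Depth was similar across libraries, at about 4820000 to 5550000 reads on annotated transcripts, and 3 reads on 2 kb of transcript amount to 0.101 to 0.115 FPKM. With 1 library for each jaw and genotype there is no SD, and no p-value was computed from the control pair alone. Differences of single genes carry an approximate counting error (1 standard error) that covers read sampling only. The mutant pair shares no library with the control pair and repeats the jaw comparison in another genotype. limma, fitted over the 4 libraries with genotype and jaw as terms, tested jaw in both genotypes together. Its 1 residual degree of freedom is the disagreement of the jaw difference between genotypes, so its p-values say nothing of how pools of 1 genotype vary. limma also drew the variance of each gene toward that of genes of similar level, with 8.22 prior degrees of freedom. The SE and p-value of a gene therefore rest mainly on the spread of other genes. For genes picked on the control difference limma reuses that difference, and passing is not independent support. The gene lists were chosen with earlier results of these data known. Counts of list members called are therefore no independent evidence about a list, also where the share of all genes stands beside them. In such bulk samples fewer cells of a type and less RNA per cell cannot be told apart.

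Markers of tooth mesenchyme were abundant in both jaws. The 10 mesenchyme marker genes were all measured and summed to 781 FPKM in the control upper and 824 FPKM in the control lower molar. Epithelial markers summed to 25.8 and 27.2 FPKM. Epcam and Cdh1, which define epithelium, were at or under 1.11 FPKM in every library, and Cldn3 was at 0. Of 21 epithelial genes listed 5 were tested, 3 higher in the lower and 2 in the upper control. Keratin genes were detected, with Krt5 at 4.98 against 7.75 FPKM and Krt14 at 1.58 against 3.91 FPKM in the control pair. Neither passed limma over both genotypes (adjusted p = 0.32 and 0.21), which called 1 of the 5, higher in the upper molar. Endothelial markers summed to 80.4 and 71.2 FPKM, with 12 of 15 tested members higher in the upper control. Of all tested genes 51.0% were higher in the upper and 49.0% in the lower control. In the mutant pair the endothelial sums were 60.1 and 66.8 FPKM. There 6 of the 12 were higher in the upper molar, against 63.7% of all tested genes. limma over both genotypes called 0 of 15 endothelial markers (1 at an unadjusted p under 0.05, against 1146 of all 10383 genes). Macrophage markers summed to 14.1 and 16.3 FPKM, neural and Schwann cell markers to 3.97 and 6.01 FPKM, pericyte and smooth muscle markers to 60.9 and 57.4 FPKM and skeletal muscle markers to 5.89 and 7.11 FPKM. Erythroid markers summed to 1037 and 921 FPKM in the control and to 936 and 1094 FPKM in the mutant pair. Of 8 tested, 7 were higher in the upper control, and 2 were higher in the upper molar of both pairs. The part of these cells in the jaw differences was not tested.

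Among transcription factors of the lists used, Prrx1, a homeobox gene of limb and facial mesenchyme, had the highest mean level per length, at 139 FPKM in the upper and 144 FPKM in the lower control. Msx1, required for the tooth to pass the bud stage, followed with 150 and 126 FPKM. Six2, a homeobox gene of facial mesenchyme, was next with 157 and 105 FPKM. Also among the 10 highest were Tcfap2b, Barx1, Lhx6, Lhx8, Pax9 and Runx2, between 48.2 and 97.8 FPKM in either jaw. Msx1 ranked 138 of all listed genes by mean control FPKM. The order of neighbours is not a tested one, and Prrx1, Msx1 and Six2 changed places between the jaws. The 10 genes with the most FPKM held 11.7% of all FPKM in the upper control library and 11.6% in the other.

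**Figure D1:**
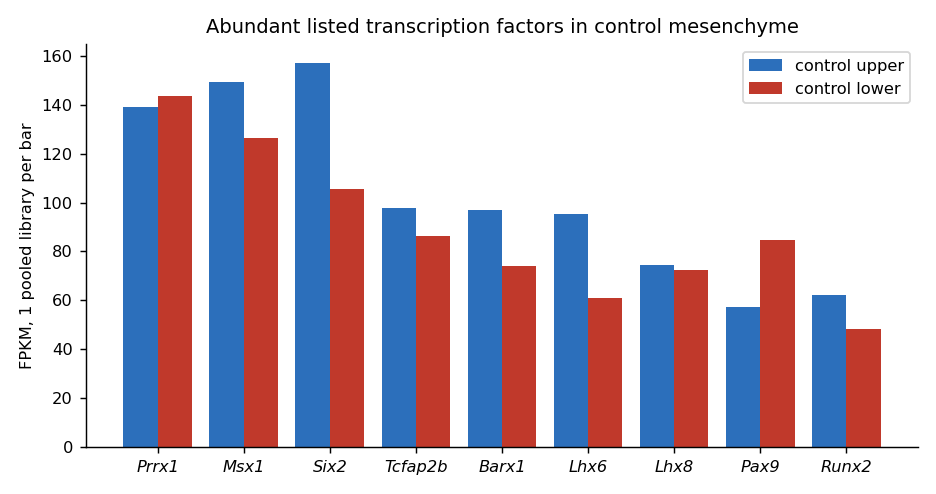
Levels (FPKM, linear axis from 0) of abundant listed transcription factors in the control upper (blue) and control lower (red) library, 1 pooled library per bar with no error bar. Six2, Barx1 and Lhx6 bars are taller in the upper molar and the Pax9 bar in the lower, while the Prrx1 and Lhx8 bars are nearly level.

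Few genes differed 2-fold between the jaws on the log2(FPKM + 1) scale. The control libraries differed at least 2-fold, by 1 or more on this scale, in 61 of 10366 genes (0.588%). Of these, 32 were higher in the lower molar (0.309%) and 29 in the upper (0.28%). At least 1.5-fold differences were found in 254 genes (2.45%), 120 toward the lower (1.16%) and 134 toward the upper molar (1.29%). The median difference over all genes was -0.0046 and 95% of genes lay within 0.47 of zero on the log2 scale. Genes just inside the 2-fold threshold were Trappc2 at 1.01 and Hic1 at -1.02, and genes just outside were Chodl at 0.999 and Cldn11 at -0.99. Genes of low level whose plain FPKM differ more than 2-fold can fall outside, as Cldn11 did with 2.09 against 0.553 FPKM.

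The mutant libraries showed the same orientation for most of these genes. All 32 genes higher in the control lower molar had a mutant difference above 0, against 36.3% of all tested genes, and 18 of the 32 passed 2-fold there (0.473% of all genes). Amd1 and Rpl30 were among the 32 with mutant differences of 0.00. Of the 29 genes higher in the control upper molar, 27 were higher in the mutant upper molar too, against 63.7% of all tested genes, and 16 passed 2-fold (0.424%). The exceptions were Gm9846 and Trf. The median size of the difference was 1.16 in the control and 1.18 in the mutant for the first group, and -1.4 and -1.09 for the second. Over both genotypes limma called 141 of 10383 genes (1.36%) at an adjusted p under 0.05, 70 higher in the lower molar (0.674%) and 71 in the upper (0.684%). The calls depended on the settings. Without the genotype term the fit of all 4 libraries called 6 genes higher in the lower and 5 in the upper molar. Fits that left out 1 library also dropped this term and left 1 library for a jaw. They therefore cannot separate the part of a single library from that of the term. With no filter on low values limma called 0 genes, and with FPKM rescaled by median ratios it called 48 and 30.

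**Figure D2:**
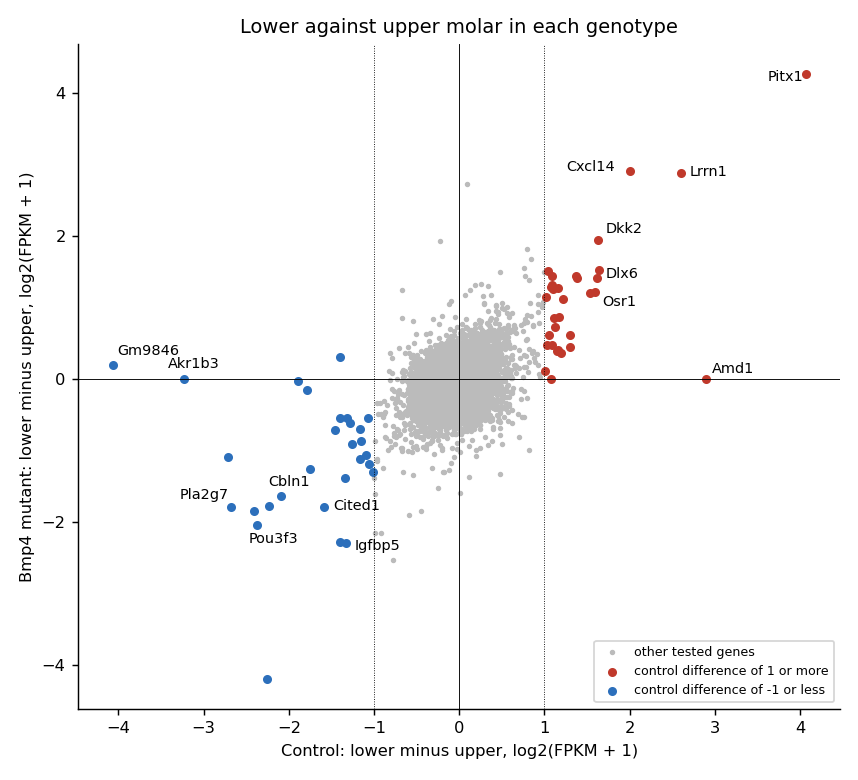
Difference of lower minus upper molar on log2(FPKM + 1) in the control pair (x axis) against the same difference in the mutant pair (y axis), 1 point per tested gene, with genes past 2-fold in the control coloured. Pitx1 and Lrrn1 lie far to the upper right with values over 2 in both pairs, and Pou3f3 lies at the lower left, below -2 in both.

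Pitx1 had the largest difference toward the lower molar. This homeobox gene (chromosome 13, 55926415 to 55932786 on mm9) had 0.862 FPKM in the control upper and 30.2 FPKM in the control lower molar, and 1.20 against 41.3 FPKM in the mutant pair. Both lower molars were thus high and both upper molars near 1 FPKM, a ratio of 35.1 in the control and 34.3 in the mutant. The control difference was 4.07 ± 0.13 (log2, counting error), and limma over both genotypes gave 4.16 ± 0.12 (SE, adjusted p = 3.5e-07). limma called Pitx1 in 10 of 11 alternative fits, the exception being the fit with no filter on low values. The chemokine gene Cxcl14 lies 457 kb from Pitx1 on the same chromosome and had 0.444 against 4.81 FPKM in the control and 0.354 against 9.13 FPKM in the mutant pair. H2afy, the tested gene between them, had a control difference of 0.09.

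Dlx5 and Dlx6, neighbouring homeobox genes on chromosome 6, were both higher in the lower molar. Dlx5 (6827805 to 6832068) had 14.6 against 39.2 FPKM in the control and 10.1 against 28.9 FPKM in the mutant pair. Dlx6 had 1.49 against 6.76 FPKM in the control and 1.26 against 5.47 FPKM in the mutant pair. The libraries of the jaws did not overlap for either gene, and how many of all tested genes separate in this way was not counted. limma gave 1.4 ± 0.11 for Dlx5 and 1.58 ± 0.12 for Dlx6 (log2, SE, adjusted p = 0.00034 for both). Dlx6os1, a noncoding transcript that overlaps Dlx6, had 0.396 against 3.04 FPKM in the control pair, and reads of overlapping genes cannot be told apart without strand. Of Dlx1 and Dlx2, active in both parts of the arch, Dlx2 went the other way and fell from 28.8 FPKM in the upper to 18.7 FPKM in the lower control and from 24.6 to 11.7 FPKM in the mutants (limma adjusted p = 0.017). Dlx1 was at 25.5 against 19.3 FPKM in the control pair (limma adjusted p = 0.13).

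The lists of jaw genes were chosen with earlier results of these data known, so their counts are no independent support. Of 25 lower jaw genes listed, 14 were tested. limma called 6 of them higher in the lower molar and 1 in the upper (0.674% and 0.684% of all genes). The 6 were Pitx1, Dlx5, Dlx6, Dlx6os1, the netrin receptor gene Unc5c and the zinc finger gene Plagl1, and the calls of the last 2 ended after rescaling. The 1 higher in the upper molar was Cited1, a transcriptional coregulator, which had 24.6 against 7.55 FPKM in the control and 25.2 against 6.59 FPKM in the mutant pair (limma adjusted p = 0.0002). The median control difference of the 14 was -0.13, against -0.0046 over all genes. Genes of the endothelin axis that were tested, Ednra at 33.4 against 29.1 FPKM and Ece1 at 22.1 against 21.0 FPKM in the control pair, did not pass limma. Hand1 and Hand2 were at 0 FPKM in both controls. Gsc, a homeobox gene of the arch, was at 0.427 against 0.967 FPKM in the control and 0.289 against 1.5 FPKM in the mutant pair, below the level at which it could be tested in the controls. None of the 15 Hox genes listed reached the tested level, and 14 were at 0 in both controls. The first arch is free of Hox expression in the embryo.

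Pou3f3 led the transcription factors that were higher in the upper molar. The gene (chromosome 1, 42753991 to 42757054 on mm9) had 17.4 against 2.56 FPKM in the control and 20.0 against 4.09 FPKM in the mutant pair. Both upper molars were high, with a ratio of 6.79 in the control and 4.89 in the mutant. The control difference was -2.37 ± 0.12 (log2, counting error), and limma gave -2.21 ± 0.12 (SE, adjusted p = 6.5e-05). The noncoding genes on both sides of it moved in the same direction. 2900092D14Rik, 126 bases away, had 9.90 against 1.31 FPKM in the control pair, and 2610017I09Rik, 2320 bases away, had 8.82 against 0.843 FPKM. Both are named because of their place, after their values were seen. The RefSeq promoter window of Pou3f3 is shown because the gene and both flanking transcripts differed together. It spans 250 bases before to 50 after the start site, at chr1:42695518-42695817 on the plus strand of GRCm38.p6, a later build than the mm9 of the expression tables:
Pou3f3: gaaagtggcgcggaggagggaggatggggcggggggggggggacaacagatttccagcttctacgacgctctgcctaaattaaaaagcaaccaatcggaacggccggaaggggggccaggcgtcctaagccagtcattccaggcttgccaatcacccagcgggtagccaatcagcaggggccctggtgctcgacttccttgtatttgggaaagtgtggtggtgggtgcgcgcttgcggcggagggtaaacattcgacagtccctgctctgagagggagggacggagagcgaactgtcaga
Of 4 motifs searched on both strands it holds none. These were TAATCC (bound by Pitx-type homeodomains), TAATTA (a general homeodomain sequence) and TATAAA (the TATA sequence). The fourth was GTTCA repeated after 6 bases, letters found within a direct repeat bound by retinoic acid receptors. No match says only that these letters are absent from this window.

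Of 21 upper jaw genes listed, 12 were tested. limma called 3 higher in the upper molar (Pou3f3, Six2 and Dlx2) and 2 in the lower (0.684% and 0.674% of all genes). Six2 had 157 against 105 FPKM in the control and 150 against 87.7 FPKM in the mutant pair (limma adjusted p = 0.018). Shox2, a short-stature homeobox gene of the palate and limb, went against its list, at 9.19 against 19.1 FPKM in the control and 14.5 against 31.6 FPKM in the mutant pair (limma adjusted p = 0.0022). Nr2f2, an orphan nuclear receptor, did so as well, at 3.99 against 6.39 FPKM in the control pair, and its call ended after rescaling. The median control difference of the 12 was -0.16.

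**Figure D3:**
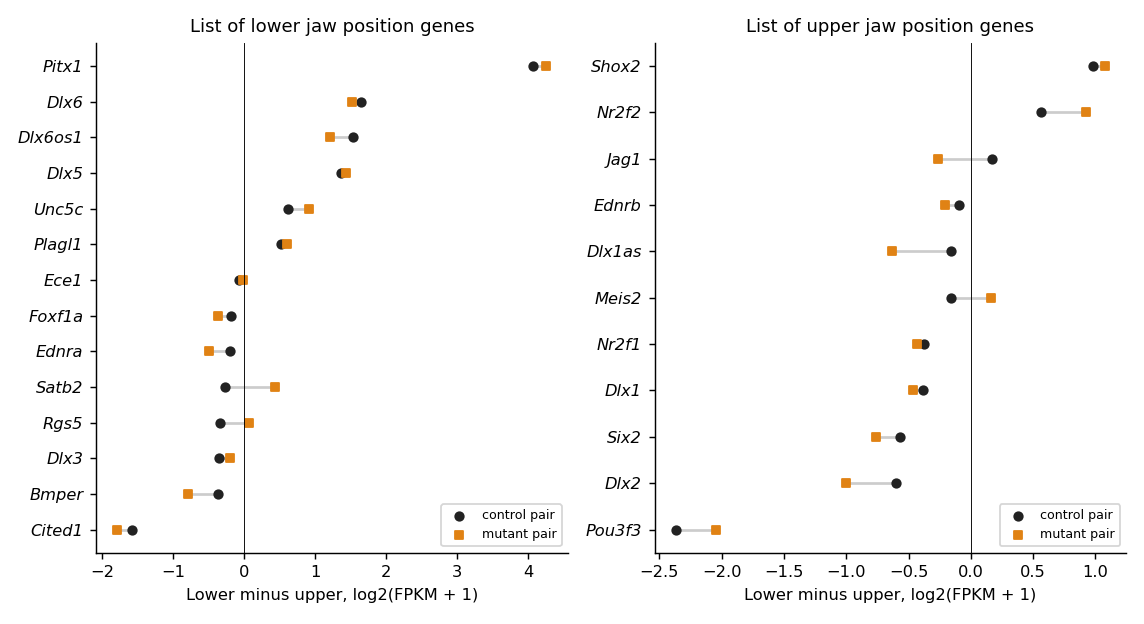
Lower minus upper difference on log2(FPKM + 1) of members of the lower jaw and upper jaw gene lists, in the control pair and the mutant pair, with circles for the control, squares for the mutant and a grey line joining the points of a gene. Pitx1, Dlx6 and Dlx5 lie to the right of zero in both pairs, while Pou3f3, Dlx2 and Six2 lie to the left and Shox2 to the right.

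Lrrn1, a leucine-rich repeat transmembrane protein known from the nervous system, came after Pitx1 among lower molar genes once Amd1, which overlaps Amd2, is left out. It lies at chromosome 6, 107479720 to 107520222 on mm9, and had 1.99 against 17.1 FPKM in the control and 4.30 against 38.1 FPKM in the mutant pair. The ratios were 8.6 in the control and 8.86 in the mutant, and limma gave 2.74 ± 0.12 (log2, SE, adjusted p = 1.1e-05). Its promoter window, shown because the gene differed by much in both genotypes, lies at chr6:107529476-107529775 (plus strand, GRCm38.p6) and holds none of the 4 motifs:
Lrrn1: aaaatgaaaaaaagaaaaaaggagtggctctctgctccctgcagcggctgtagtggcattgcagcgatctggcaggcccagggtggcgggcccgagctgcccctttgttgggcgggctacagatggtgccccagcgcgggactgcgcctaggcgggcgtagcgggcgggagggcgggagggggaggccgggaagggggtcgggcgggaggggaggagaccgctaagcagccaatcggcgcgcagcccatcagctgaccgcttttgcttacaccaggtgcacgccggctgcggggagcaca
Osr1, a zinc finger transcription factor, had 6.81 against 22.6 FPKM in the control and 20.9 against 50.1 FPKM in the mutant pair (limma adjusted p = 0.00066). Tbx15, a T-box factor of craniofacial and limb mesenchyme, had 3.00 against 7.96 FPKM in the control and 6.07 against 16.1 FPKM in the mutant pair (limma adjusted p = 0.001). Both genes were higher in each lower library than in the upper library of the same genotype, though the mutant upper level of Osr1 was close to the control lower level.

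Secreted regulators of Wnt signalling, which bind Wnt proteins or their receptors, were among the lower molar genes. Dkk2, a receptor-binding modulator, had 2.61 against 10.2 FPKM in the control and 4.41 against 19.7 FPKM in the mutant pair, a limma difference of 1.79 ± 0.12 (log2, SE, adjusted p = 0.0002). Wif1, which binds Wnt proteins, had 1.33 against 4.0 FPKM in the control and 1.28 against 4.43 FPKM in the mutant pair. Sfrp1, a soluble receptor, had 25.6 against 49.2 FPKM in the control and 29.9 against 63.0 FPKM in the mutant pair, and passed limma with Wif1 (adjusted p = 0.0025 for both). Of the 15 tested Wnt antagonists and target genes limma called 4 higher in the lower molar (0.674% of all genes), the fourth being Apcdd1. It called 1 higher in the upper molar (0.684%), the zinc finger gene Sp5. The calls of Apcdd1 and Sp5 ended after rescaling. Of 21 tested Wnt ligands and receptors limma called 0, with 4 at an unadjusted p under 0.05, against 1146 of all 10383 genes. Dkk2 lies at chromosome 3, 131748256 to 131843268 on mm9. Its promoter window at chr3:132085042-132085341 (plus strand, GRCm38.p6) is shown as that of the Wnt regulator with the largest difference, with the TATA sequence TATAAA in capitals, 32 bases before the start site:
Dkk2: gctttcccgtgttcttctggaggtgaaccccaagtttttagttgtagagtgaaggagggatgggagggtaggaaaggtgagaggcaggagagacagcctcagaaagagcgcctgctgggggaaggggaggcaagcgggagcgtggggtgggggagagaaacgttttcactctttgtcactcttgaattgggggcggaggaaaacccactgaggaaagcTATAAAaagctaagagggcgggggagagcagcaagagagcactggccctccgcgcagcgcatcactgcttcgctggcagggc
TATAAA stands on either strand in a window of 8.06% of the 7447 tested genes that have one, and 4 of 21 lower molar genes and 2 of 20 upper molar genes with a window had it. TAATCC was in 1 of the 21 and 2 of the 20, against 6.43% of tested genes, and TAATTA was in 1 and 2, against 2.87%.

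Growth factor and matrix genes were higher in the lower molar in several cases. Fgf18, a fibroblast growth factor ligand of bone and cartilage development, had 4.67 against 16.4 FPKM in the control and 12.1 against 34.0 FPKM in the mutant pair (limma adjusted p = 0.00031). It was the only one of 18 tested FGF pathway genes that limma called (1.36% of all genes). Cd44, the hyaluronan receptor, had 2.62 against 8.46 FPKM in the control and 2.23 against 7.58 FPKM in the mutant pair (limma adjusted p = 0.00048). The 2 lower molars lay above both upper molars for Cd44 and Fgf18, without a count of how many of all genes do so. Postn, a matricellular protein of the periodontal ligament and bone surface, had 113 against 194 FPKM in the control and 193 against 281 FPKM in the mutant pair (limma adjusted p = 0.02). Of 34 matrix genes tested, limma called 8 higher in the lower molar, Postn, Cd44, Thbs1, Thbs2, Fbn2, Dcn, Fbln2 and Sparc (0.674% of all genes). It called 1 higher in the upper molar, Matn2 (0.684%). The control median of the list was 0.14. After rescaling the calls of Thbs2, Sparc and Matn2 ended. Among 18 collagens limma called Col1a1 (95.3 against 140 FPKM in the control pair) and Col25a1 higher in the lower molar (0.674% of all genes). The Col25a1 call ended after rescaling. Col12a1 had 5.87 against 15.8 FPKM in the control pair but 12.6 against 17.6 FPKM in the mutant pair, and did not pass limma (adjusted p = 0.055).

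The insulin-like growth factor axis was divided. Igf2, an imprinted growth factor gene, had 240 against 362 FPKM in the control and 196 against 360 FPKM in the mutant pair (limma adjusted p = 0.014). H19, its imprinted noncoding neighbour, had 175 against 260 FPKM in the control and 164 against 273 FPKM in the mutant pair (limma adjusted p = 0.018). Igfbp2 and Igfbp5, which encode proteins that bind insulin-like growth factors, lie 5593 bases apart on chromosome 1 and differed in opposite directions. Igfbp2 had 4.64 against 12.2 FPKM in the control and 7.18 against 16.7 FPKM in the mutant pair (limma adjusted p = 0.0012). Igfbp5 had 37.3 against 14.2 FPKM in the control and 34.9 against 6.34 FPKM in the mutant pair (limma adjusted p = 0.0022). Of the 14 tested genes of the axis, limma called these 4 (1.36% of all genes). Dlk1 and Peg3, 2 other imprinted genes, were higher in the lower molar of both genotypes without passing limma (adjusted p = 0.064 and 0.058).

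**Figure D4:**
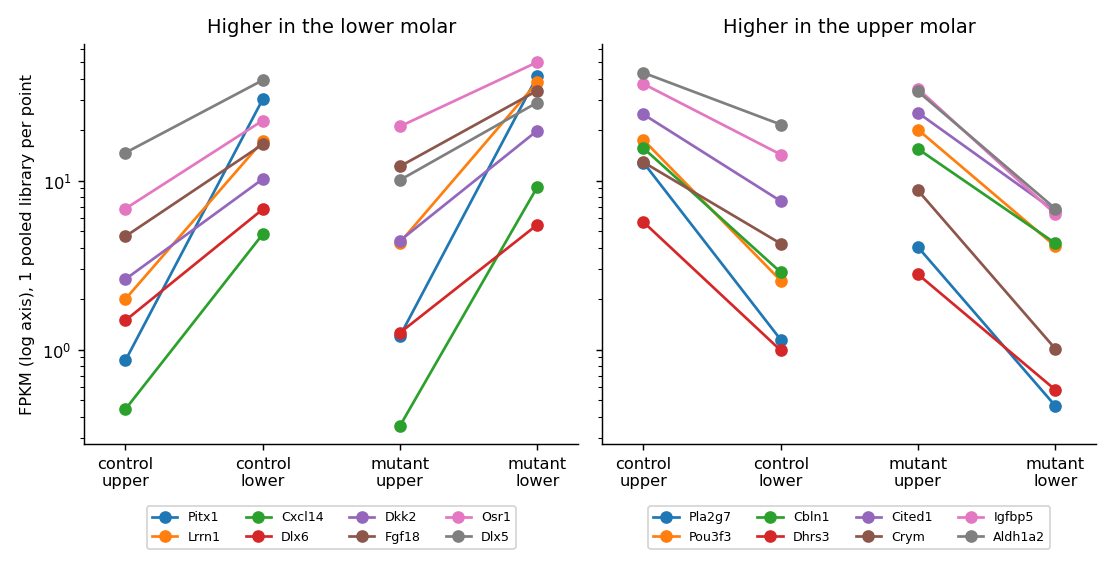
FPKM (log axis) of 8 genes higher in the lower and 8 higher in the upper molar, 1 pooled library per point, with lines joining the upper and lower library of a genotype. In the left panel every line climbs from upper to lower and in the right panel every line drops, in both genotypes.

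Retinoic acid genes that passed limma were higher in the upper molar. Retinoic acid is made from vitamin A by retinaldehyde dehydrogenases and acts through nuclear receptors, some of whose own genes respond to it. Aldh1a2, a main synthesis enzyme, had 43.4 against 21.4 FPKM in the control and 33.6 against 6.82 FPKM in the mutant pair (limma adjusted p = 0.0091). Dhrs3, a retinaldehyde reductase that limits synthesis, had 5.68 against 0.989 FPKM in the control and 2.79 against 0.578 FPKM in the mutant pair (limma adjusted p = 0.002). Rarb, a receptor gene induced by the ligand, had 4.06 against 2.16 FPKM in the control and 3.8 against 1.45 FPKM in the mutant pair (limma adjusted p = 0.018). In each of these 3 genes the upper library was above the lower library of the same genotype. limma called 3 of 13 tested members higher in the upper molar (0.684% of all genes) and 0 higher in the lower (0.674%). At an unadjusted p under 0.05 were 6 of the 13, against 1146 of all 10383 genes. The control median of the list was -0.11. The calls of Aldh1a2 and Rarb ended after rescaling, and that of Dhrs3 did not. Crabp2, a binding protein, had 6.12 against 12.6 FPKM in the control pair but 24.5 against 25.8 FPKM in the mutant pair, and did not pass (limma adjusted p = 0.31). The promoter window of Rarb (chr14:16575427-16575726, minus strand, GRCm38.p6) is shown because it holds GTTCA repeated after 6 bases. These letters are part of a direct repeat of the kind bound by retinoic acid receptors. Its half-sites of 6 bases are GGTTCA and AGTTCA, with CCGAA between them. The match to the searched letters is in capitals, starting 52 bases before the start site:
Rarb: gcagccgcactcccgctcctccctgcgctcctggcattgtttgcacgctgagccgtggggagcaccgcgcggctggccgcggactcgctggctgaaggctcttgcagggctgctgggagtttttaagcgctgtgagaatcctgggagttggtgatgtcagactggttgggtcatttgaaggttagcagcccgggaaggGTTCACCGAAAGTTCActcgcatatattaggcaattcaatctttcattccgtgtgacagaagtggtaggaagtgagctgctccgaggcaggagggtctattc
This pattern of letters stood on either strand in 3 of the 9549 windows of tested genes and in 25 of all 32851 windows (0.0761%). It was in 0 of the windows of genes past 2-fold in either direction. Repeats with other half-site letters were not searched, so these counts do not cover every retinoic acid element. Rarb is shown for its match, so the low share lends the match no support.

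Further upper molar genes came from varied classes. Pla2g7, which encodes the secreted enzyme that degrades platelet-activating factor, had 12.8 against 1.14 FPKM in the control and 4.04 against 0.465 FPKM in the mutant pair (limma adjusted p = 0.00061). Cbln1, a secreted synapse organiser, had 15.5 against 2.87 FPKM in the control and 15.4 against 4.26 FPKM in the mutant pair (limma adjusted p = 0.00023). Crym, which binds thyroid hormone, had 12.8 against 4.23 FPKM in the control and 8.73 against 1.01 FPKM in the mutant pair (limma adjusted p = 0.0016). For each of these 3 genes both upper libraries lay above both lower ones. The genes were picked by their control difference, and the share of all genes that separate so was not counted. Gng3, a G protein subunit, and Slc1a3, a glutamate transporter, were also called, with limma differences of -1.37 and -1.09 (adjusted p = 0.00061 and 0.0041). Of the axon guidance genes, limma called the receptors Robo1, Plxna2 and Plxna4 higher in the upper molar, of 32 tested (0.684% of all genes). The calls of Robo1 and Plxna4 ended after rescaling. Slit2, a ligand of Robo receptors, had 4.16 against 10.5 FPKM in the control pair and did not pass limma (adjusted p = 0.059).

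Most core tooth mesenchyme factors differed by less than 2-fold between the control jaws. Of 30 odontogenic transcription factors tested in the controls, 7 were higher in the lower and 23 in the upper molar (51.0% of all tested genes), with a median of -0.17, and 1 passed 2-fold, Osr1. Of 30 in limma, 2 were called higher in the lower molar, Osr1 and Pax9 (0.674% of all genes). In the upper molar 3 were called higher, Lhx6 and Sox9 among them (0.684%). At an unadjusted p under 0.05 were 17 of the 30, against 1146 of all 10383 genes. Pax9, a paired-box factor needed for tooth formation, had 57.4 against 84.9 FPKM in the control and 74.9 against 108 FPKM in the mutant pair (limma adjusted p = 0.04). Lhx6, a LIM homeobox factor, had 95.5 against 61.1 FPKM in the control and 107 against 77.8 FPKM in the mutant pair (limma adjusted p = 0.045). The calls of Lhx6 and Sox9 ended after rescaling. Msx1 was at 135 and 98.4 FPKM in the mutants and did not pass limma (adjusted p = 0.22), nor did Lhx8 at 74.5 against 72.4 FPKM in the control pair (limma adjusted p = 0.98). Bmp4 itself had 24.8 against 27.2 FPKM in the control and 4.75 against 4.90 FPKM in the mutant pair (limma adjusted p = 0.88 for jaw).

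Of 11 BMP response genes in limma, Id3 and Id4, inhibitors of basic helix-loop-helix factors, were called higher in the upper molar (0.684% of all genes). Both calls ended after rescaling. In the controls 11 of 12 tested members were higher in the upper molar, against 51.0% of all tested genes, with a median of -0.20, and 8 of them were higher there in the mutant pair too, against 63.7% of all tested genes. Nbl1, a secreted BMP antagonist, had 1.1 against 3.10 FPKM in the control and 3.08 against 7.44 FPKM in the mutant pair (limma adjusted p = 0.0041). It was the only call among 19 BMP ligands and modulators (1.36% of all genes). Of 6 cartilage genes tested in the controls, 4 were higher in the upper molar and the other 2 were lower there, each in the same direction in the mutant pair. Of 5 in limma, Sox9 and Sox6, which drive chondrocyte differentiation together, were called higher in the upper molar (0.684% of all genes). The Sox9 call ended after rescaling, and that of Sox6 did not. Sox6 had 7.03 against 3.33 FPKM in the control and 4.14 against 1.16 FPKM in the mutant pair (limma adjusted p = 0.0047). Col2a1, the main cartilage collagen, had 4.2 against 5.96 FPKM in the control and 4.17 against 6.23 FPKM in the mutant pair. Among 10 osteoblast genes limma called Dlx5, Postn and Alpl, the bone alkaline phosphatase, higher in the lower molar (0.674% of all genes). The Alpl call ended after rescaling. Of 28 proliferation genes limma called 0 for jaw, with 3 at an unadjusted p under 0.05, against 1146 of all 10383 genes. In the control pair 16 were higher in the lower and 12 in the upper molar. In the mutant pair 0 of those 16 were higher in the lower molar. The list median was 0.03 in the control and -0.32 in the mutant pair, against -0.07 over all genes in the mutant pair, and the difference between genotypes was not tested. Of 15 housekeeping genes limma called 0, with 0 at an unadjusted p under 0.05 (1146 of all 10383 genes).

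**Figure D5:**
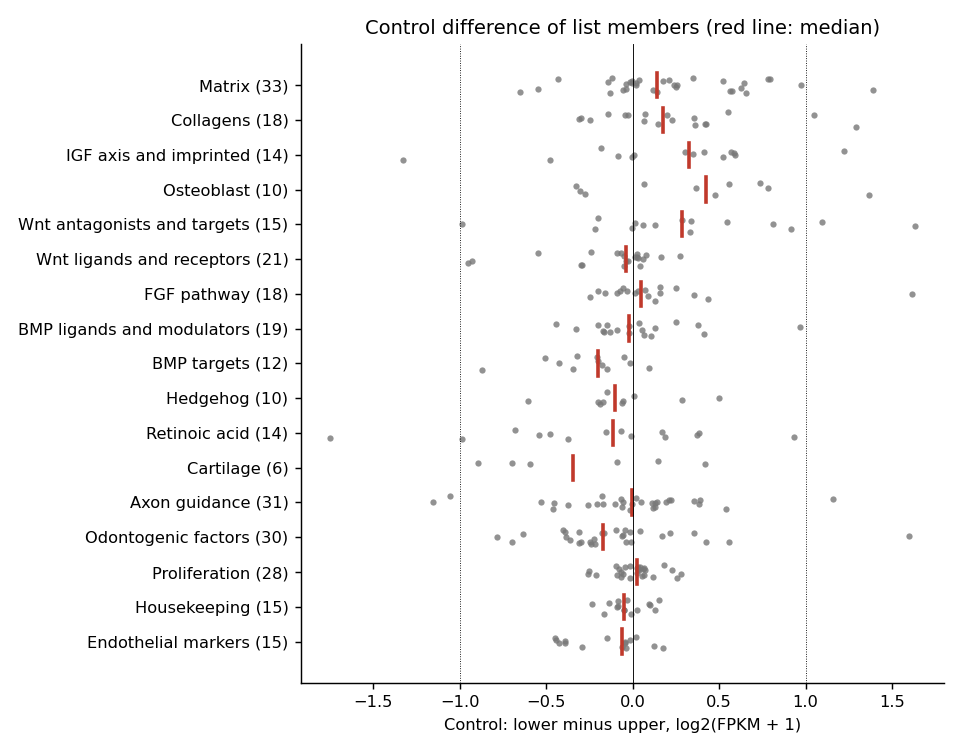
Lower minus upper difference on log2(FPKM + 1) in the control pair, 1 point per tested gene, for the gene lists named at the left with their numbers of genes, with a red line at the median of each list and dotted lines at 2-fold. Most points lie within 0.5 of zero, and the points farthest out are Dhrs3 at -1.75 in the retinoic acid list and Dkk2, Fgf18 and Osr1 between 1.60 and 1.63 in theirs.

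Some large differences were in genes that overlap another or had almost no reads in 1 library. Amd1 and Amd2 are listed at nearly the same place on chromosome 10, from 40007264 to 40021994 on mm9, and went opposite ways in the controls. Amd1 was at 0.00605 against 6.46 FPKM and Amd2 at 6.80 against 1.1 FPKM in the control pair. Their sum was 6.81 FPKM in the upper and 7.56 FPKM in the lower control. Akr1b3, Rpl26, Gm9846 and Rangrf were also read with under 3 reads in 1 control library. Without the 6 genes read that thinly 31 genes were higher in the lower and 24 in the upper control. Of these 55 genes, 54 had the same direction in the mutant pair, and their counting errors lay between 0.049 and 0.31 on the log2 scale.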

How the data were processed

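RNA of laser-captured molar mesenchyme was amplified to cDNA (NuGEN Ovation) and made into Nextera libraries, per the labels' protocols. Alignment used TopHat 1.4.1 with Bowtie 0.12.7 and the mm9 build, per the submitters' processing notes. Tables deposited by the authors, in the layout of Cufflinks output, give FPKM and a coverage signal per RefSeq transcript, per the file headers. The Cufflinks version, the use of strand and the handling of multiply aligned reads are not given in the sources used here. Amplification of small RNA amounts and the sharing of reads between near-identical genes can affect single values.

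FPKM was summed per gene symbol, and log2(FPKM + 1) was compared, so the pseudocount was 1. Approximate reads were coverage times length divided by the mean of 44.2 bases per read. They cover counting error only, since amplified reads are not independent molecules. Jaw was tested over both genotypes with limma 3.58.1 in R 4.3.3 (genotype and jaw as terms, intensity trend, two-sided, Benjamini-Hochberg adjustment at 0.05) in 10383 genes whose mean over 4 libraries was 1 FPKM or more. limma was tested on simulated data. Named genes were the 15 most different in each direction whose control mean was 2 FPKM or more and whose symbol was not provisional, all members of the jaw position and Hox lists, up to 6 of each other list, the 15 most abundant genes and 10 most abundant transcription factors, and 22 tooth genes chosen singly. Members and the 34 lists were chosen with earlier results of these data known. Promoter windows are RefSeq's for GRCm38.p6, matched by symbol for 21 of 32 and 20 of 29 genes past 2-fold. Alternatives were other pseudocounts, filters, scaling, transcript choice, model terms and leaving out each library. A few genes that entered the counts are not reported here by name.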

Additional observations from a re-analysis of the deposited data

Results flagged for a closer look

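In 4 genes the jaw difference pointed one way in the control pair and the other way in the mutant pair, and in none of them was the difference between genotypes tested. Myl4, a myosin light chain gene of muscle, differed by 0.82 in the control and -0.99 in the mutant (lower minus upper, log2). Nefl, a neurofilament gene, differed by 0.62 and -0.62. Gm9846, read with under 3 reads in the control lower molar, differed by -4.06 and 0.19. Trf, which encodes transferrin, differed by -1.40 and 0.31.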

How the results depend on the processing

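No paired analysis by replicate number was run, since the labels give none and each group has 1 library. The genotype term of limma compares the jaws within a genotype. The main counts past 2-fold were 32 (lower) and 29 (upper). They became 73 and 78 with a pseudocount of 0.1, 6 and 10 with a pseudocount of 5, 15 and 10 with a minimum of 5 FPKM, 57 and 64 without the length filter, and 95 and 98 with only the most abundant transcript of each gene. Without a filter on low values (35 and 30), after rescaling, and without genes under 3 reads (31 and 24, added after seeing the data) they stayed within 1.5 times. The share with the same direction in the mutant pair, 100% and 93.1%, was 89.0% for lower molar genes with a pseudocount of 0.1, 68.4% and 56.2% without the length filter, and 71.6% and 73.5% with the most abundant transcript. limma counts of 70 and 71 became 0 and 0 without a filter on low values (1421 genes at an unadjusted p under 0.05), 6 and 5 without the genotype term, and 42 and 39 without the length filter. After rescaling they were 48 and 30, and 77 of those 78 calls were among the 141. Leaving out 1 library, which also drops the genotype term, gave 24 and 27 calls (control upper), 2 and 3 (control lower), 50 and 36 (mutant upper) and 2 and 4 (mutant lower). The cause was not tested. Of 231 named genes tested, 16 crossed the 2-fold threshold with a pseudocount of 0.1 and 0 after rescaling. Genes near 1 FPKM are limited by depth.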

Other observations

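Other genes of cytoskeletal, cell surface and secreted proteins differed between the jaws, and were chosen here after their values were seen. Chodl, a transmembrane lectin, had 3.84 against 8.68 FPKM in the control and 7.95 against 24.2 FPKM in the mutant pair. Dpysl3, a cytoskeletal protein of growing axons, had 7.13 against 16.3 FPKM in the control and 6.19 against 16.8 FPKM in the mutant pair. Figf, a growth factor of lymphatic endothelium, had 10.95 against 5.31 FPKM in the control and 10.4 against 1.57 FPKM in the mutant pair. Cldn11, a tight junction protein, had 2.09 against 0.553 FPKM in the control and 2.94 against 0.513 FPKM in the mutant pair. In each of these 4 genes the difference had the same direction in both genotypes.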
